A study of Homo sapiens with 2 samples.

Results

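The LIN28 and IGF2BP RNA-binding proteins, the HMGA chromatin proteins and the let-7 targets TRIM71 and ARID3B were examined in human liver progenitors as 9 genes, taken by symbol from 57158 rows of 1 expression table. Each symbol matched 1 row, and all 9 are protein-coding genes, out of 19344 protein-coding symbols with a value. The progenitors were made from CyT49, a human embryonic stem cell line, and represent that 1 line. Definitive endoderm at day 2 had been grown in suspension for 6 days in RPMI medium with 50 ng/ml BMP4, 10 ng/ml FGF2 and 0.2% FBS, and poly(A) RNA was sequenced at day 8. There were 2 libraries of this 1 group and no second condition, so the values below are levels and not changes.

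The 9 genes belong to a well-known fetal circuit. LIN28A and LIN28B bind the loop of let-7 microRNA precursors and block their maturation, and mature let-7 in turn represses mRNAs that carry sites for it, LIN28 and IGF2BP mRNAs among them. let-7 rises and LIN28 falls as tissues mature. LIN28A, LIN28B, IGF2BP1, IGF2BP3 and HMGA2 are active in embryonic and fetal tissue and low or silent in most adult tissue. They return in some liver cancers, while IGF2BP2 is also expressed by adult tissues. The IGF2BP proteins bind and stabilise mRNAs, IGF2 mRNA being the one they are named for, and the HMGA proteins bend AT-rich DNA.

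The RNA sequences at the centre of the circuit are shown first. All 9 different mature let-7 and miR-98 sequences from the 5p arm, encoded at 12 loci, carry 1 seed, GAGGUAG at bases 2 to 8. The 3 below are from RefSeq (GRCh38.p14), with the seed in capitals.
hsa-let-7a-5p: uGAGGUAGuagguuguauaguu
hsa-let-7g-5p: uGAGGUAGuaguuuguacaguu
hsa-miR-98-5p: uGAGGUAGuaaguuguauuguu

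LIN28 zinc knuckles recognise GGAG in the precursor loop. GGAG was found between the 5p arm and the start of the 3p arm in 9 of 12 hairpins, and not in those of let-7a-3, let-7b and miR-98. A hairpin with the motif (let-7g, chr3:52268278-52268361, minus strand, GRCh38.p14) and one without it (let-7a-3, chr22:46112749-46112822, plus strand, GRCh38.p14) are given with GGAG in capitals.
MIRLET7G: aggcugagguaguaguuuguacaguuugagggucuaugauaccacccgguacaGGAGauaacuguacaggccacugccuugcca
MIRLET7A3: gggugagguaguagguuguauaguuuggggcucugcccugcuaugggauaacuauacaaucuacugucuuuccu

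The match to the let-7 seed, CTACCTC on the mRNA strand, was counted in annotated 3′ UTRs (GENCODE release 44 on GRCh37). In canonical transcripts all 9 genes held at least 1 match, beside 1811 of 18550 protein-coding genes (9.76%). In the longest annotated 3′ UTR of each gene 8 of 9 did, beside 1993 of 18772 (10.6%). The exception was HMGA2, whose longest UTR, of 7421 bases, belongs to another isoform with no match, while its canonical UTR of 2999 bases held 4. Because the 9 genes include textbook let-7 targets, these counts describe the choice of genes and are no test of it.

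TRIM71 held 6 matches in a UTR of 6013 bases, more than any other of the 18772 genes. LIN28B held 4 matches in 4549 bases and IGF2BP1 4 in 6701 bases, a number reached or passed by 12 of 18772 genes (0.0639%). LIN28A, HMGA1, IGF2BP2, IGF2BP3 and ARID3B held 1 match each. The 9 genes thus fall into 4 with several matches and 5 with 1, taking HMGA2 by its canonical transcript. The share was higher among long UTRs: of 8904 genes with a UTR at least as long as the shortest of the 9, 18.1% held a match.

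**Figure D1:**
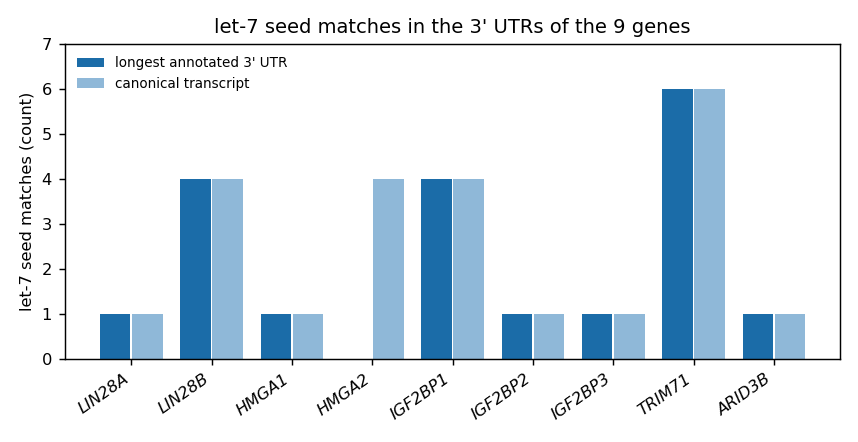
Number of let-7 seed matches (vertical axis, count) in the 3′ UTR of each of the 9 genes, for the longest annotated UTR (dark bars) and the canonical transcript (light bars). TRIM71 has 6, LIN28B and IGF2BP1 have 4, and HMGA2 has 4 in its canonical transcript and 0 in its longest UTR.

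For each gene 1 site is shown on the mRNA strand with GRCh37 coordinates, the first match followed by A where there is one and otherwise the first match. Capitals mark the seed match, and the bases before them face the rest of the microRNA.
LIN28A (chr1:26753832-26753861, plus strand): ttggagtgcacagcctattgaaCTACCTCa
LIN28B (chr6:105526680-105526709, plus strand): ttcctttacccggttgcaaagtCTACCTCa
TRIM71 (chr3:32933453-32933482, plus strand): aaagtacaacattgcttaagtcCTACCTCa
HMGA1 (chr6:34213599-34213628, plus strand): ccatttttcctctgttcacaaaCTACCTCt
HMGA2 (chr12:66357073-66357100, plus strand): ggggcgccaacgttcgatttCTACCTCa
IGF2BP1 (chr17:47128416-47128445, plus strand): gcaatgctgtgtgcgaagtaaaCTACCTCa
IGF2BP2 (chr3:185362008-185362037, minus strand): cgagaaaaacacacagaagaagCTACCTCa
IGF2BP3 (chr7:23351414-23351443, minus strand): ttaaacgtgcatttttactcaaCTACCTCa
ARID3B (chr15:74890435-74890464, plus strand): atgtttatatttcaataaacctCTACCTCt

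The match of HMGA1 and that of ARID3B are followed by T and not by A. The match of ARID3B, its only one, starts at base 2342 of a UTR of 2357 bases, close to the annotated end. Whether the mRNA of these cells reached that far was not tested. A match describes these letters in an annotated UTR and does not show that let-7 bound it in these cells, and the libraries did not measure mature microRNAs.

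Levels are given in RPKM, reads scaled for gene length and library depth as the authors computed them, and a value below 0.5 appears as 0.1, called the floor here. Values of single-exon genes rise in steps worth 1 read, which gave depths of 25182078 reads for library 1 and 25263828 for library 2. Over 1003 single-exon genes the variance between libraries was 1.09 times that of counting, so both were treated as 1 sample, and the SD between them is a technical error. Nothing in the labels says whether they came from separate cultures. The label of the cells was checked against markers. All 8 liver progenitor markers stood at 10 RPKM or more, beside 20.2% of protein-coding genes, HNF4A at 44.7 and AFP at 706. Of 8 pluripotency markers 5 were at the floor in both libraries, POU5F1, NANOG and SOX2 included, and 2 reached 1 RPKM, ZFP42 at 13.1 and DPPA4 at 1.87. Of 4 germ cell markers none reached 1 RPKM. Of 4 neural markers 2 reached 1 RPKM, TUBB3 at 39.6 and NES at 15.7, and of 4 mesenchyme markers 2 did, COL1A1 at 8.29 and PDGFRB at 2.14, with the others of both lists at the floor. The part of such cells in the levels below was not tested.

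All 9 genes were detected. Each stood at 1 RPKM or more in both libraries, a limit that 59.8% of protein-coding genes passed, 7 stood at 10 RPKM or more, beside 20.2%, and 2 at 100 RPKM or more, beside 1.3%. Their median was 31.4 RPKM, against 2.42 RPKM over all protein-coding genes. The lowest as deposited, HMGA2, was above 67.5% of protein-coding genes, and the highest, HMGA1, ranked 42 of 19344. The RNA was a bulk extract, so a gene expressed weakly in all cells and one expressed strongly in a few cannot be told apart, and neither can fewer cells of a type and less RNA per cell.

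**Figure D2:**
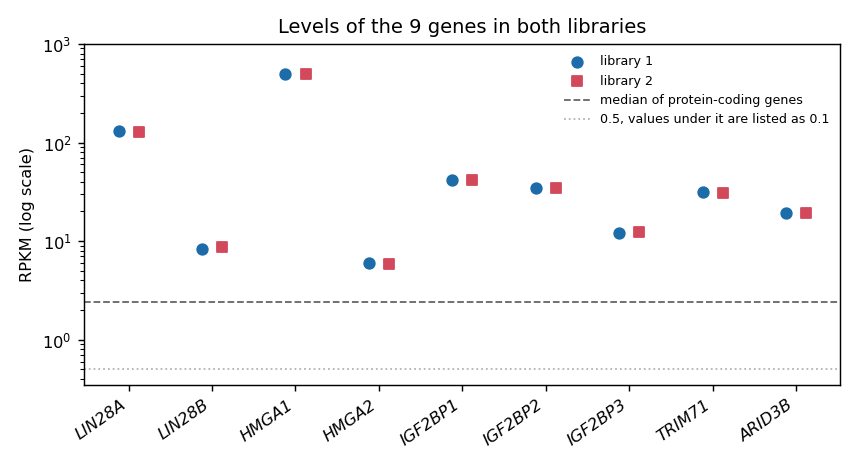
RPKM (vertical axis, log scale) of the 9 genes in library 1 (circles) and library 2 (squares), with the median of all protein-coding genes (dashed) and the limit of 0.5 under which values are listed as 0.1 (dotted). HMGA1 and LIN28A stand above 100 RPKM, and LIN28B and HMGA2 between 5 and 10, with both libraries of each gene at nearly the same height.

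The libraries agreed closely for these genes. The log2 ratio of library 2 to library 1 ran in size from 0.0021 for IGF2BP2 to 0.0509 for LIN28B, against a median of 0.0338 and a 95th percentile of 0.129 over 6237 protein-coding genes of the same range of level. With reads estimated from canonical transcript lengths, the difference was at most 1.04 counting standard errors, the highest being that of TRIM71. The estimate ranged from about 620 reads in library 1 for HMGA2 to about 24075 for HMGA1, or from 1258 for LIN28B to 29178 for HMGA1 with summed exon lengths, and these errors cover counting only.

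In descending order the genes were HMGA1, LIN28A, IGF2BP1, IGF2BP2, TRIM71, ARID3B, IGF2BP3, LIN28B and HMGA2. For all 8 pairs of neighbours in this order the lower library of the higher gene lay above the higher library of the lower gene. The narrowest gaps were 1.09-fold between IGF2BP2 and TRIM71 and 1.21-fold between IGF2BP1 and IGF2BP2. The gene lengths the authors divided by are unknown, and the order of the lowest pair depends on them. LIN28B stood 1.45-fold above HMGA2 as deposited, but at 0.433 of it if the authors divided by summed exon lengths and levels are taken per canonical transcript. The other 7 genes kept their places under that assumption, which was chosen after seeing the data.

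**Figure D3:**
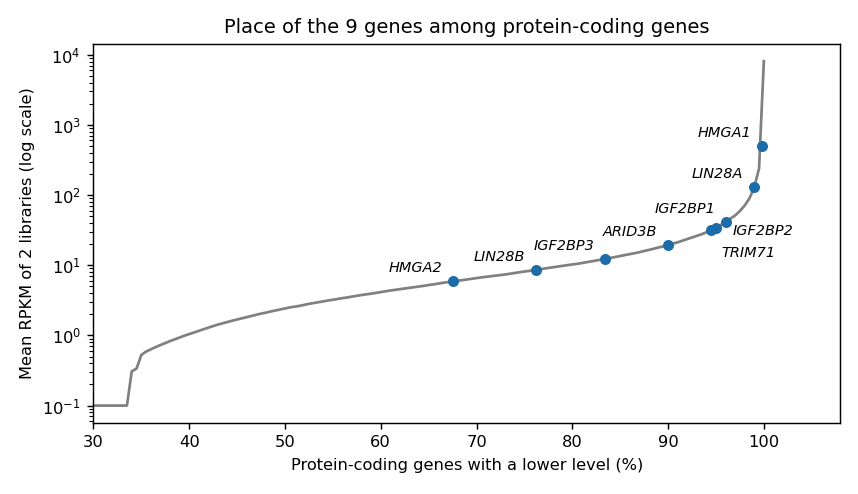
Mean RPKM of the 2 libraries (vertical axis, log scale) against the percentage of protein-coding genes with a lower level (horizontal axis), for all protein-coding genes (line) and the 9 genes (points). HMGA1 and LIN28A lie on the steep end of the curve, above 99.8% and 99.0% of genes, and HMGA2 lies above 67.5%.

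Of the LIN28 pair, LIN28A was by far the more abundant. LIN28A (ENSG00000131914.6, chromosome 1 from 26737308 to 26756219) had 130 RPKM in library 1, 129 RPKM in library 2 and a mean of 129 ± 0.925 (SD, n = 2 libraries), and ranked 195 among protein-coding genes. LIN28B (ENSG00000187772.6, chromosome 6 from 105384491 to 105531207) stood at 8.40 and 8.71 RPKM, a mean of 8.56 ± 0.214 (SD, n = 2 libraries), and ranked 4606. LIN28A made up 93.9% of the summed LIN28 level in library 1 and 93.7% in library 2, a ratio to LIN28B of 15.1 ± 0.485 (SD, n = 2 libraries). LIN28A is also a gene of pluripotent stem cells. Of 8 markers of those cells ZFP42 was the highest, at 13.2 RPKM in library 1 and 13.0 in library 2. The core factors POU5F1, NANOG and SOX2 among them were at the floor, which stands for any value below 0.5. Whether such cells contributed to the LIN28A level was not tested.

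The neighbours of LIN28A and LIN28B were far lower. DHDDS, 2.6 kb from LIN28A, stood at 4.63 RPKM, and ZNF683 on its other side was at the floor. Beside LIN28B, BVES stood at 0.719 and HACE1 at 1.54 RPKM, and the overlapping antisense transcript LIN28B-AS1 was at the floor in both libraries. Of 6 other genes with a cold-shock domain, the fold LIN28 uses to bind RNA, 5 reached 1 RPKM, beside 59.8% of protein-coding genes. They were led by YBX1 at 314, and the median of the 6 was 14.2 RPKM.

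LIN28 acts on the pathway that matures or destroys let-7 precursors. All 19 genes listed for that machinery stood at 1 RPKM or more, beside 59.8% of protein-coding genes. Of the 19, 5 stood at 10 or more, beside 20.2%, and the median was 6.59 RPKM. The highest were the RNA-binding proteins HNRNPA1 at 195 and KHSRP at 56.5, both known to act on let-7 precursors, followed by the microprocessor nuclease DROSHA at 11.3, the exporter XPO5 at 11.03, the Dicer partner PRKRA at 10.2 and the silencing scaffold TNRC6A at 9.25. DICER1, which cuts the hairpin, stood at 7.14 RPKM and DGCR8, the partner of DROSHA, at 7.37. The uridylyl transferases that LIN28A recruits to the precursor were lower, TUT4 at 5.96 and TUT7 at 3.75 RPKM, and DIS3L2, the exonuclease that degrades tailed precursors, was the lowest of the list at 2.07. None of the 19 was at the floor.

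The let-7 precursors were not detected in these libraries. The 11 let-7 hairpins with a row were at the floor in both libraries, where 0.5 RPKM stood for 0.91 to 1.17 reads, and hairpins are shorter than the fragments that were size-selected. Of 9 host transcripts, HUWE1, whose introns hold let-7f-2 and miR-98, stood at 31.9 RPKM and WDR82, host of let-7g, at 26.4. MIRLET7A1HG had 1.19 and 1.02 RPKM, and SPACA6 and MIRLET7IHG lay under 1 RPKM. MIRLET7BHG, MIR99AHG, MIR100HG and MIRLET7DHG were at the floor. Host mRNA levels do not give the amount of mature microRNA, so the let-7 side of the circuit was not measured here.

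TRIM71, a ubiquitin ligase and mRNA repressor whose worm homologue lin-41 is a classic let-7 target, lay in the middle of the 9 genes. TRIM71 (ENSG00000206557.4, chromosome 3 from 32859489 to 32939316) stood at 31.7 and 31.1 RPKM, a mean of 31.4 ± 0.395 (SD, n = 2 libraries), and ranked 1073. Its structural relatives with NHL repeats were lower, TRIM32 at 6.74, TRIM3 at 3.90 and TRIM2 at 1.87 RPKM. Its neighbour CNOT10 stood at 6.01 RPKM and CCR4 on the other side was at the floor. No pseudogene copy of TRIM71 was found, and its UTR is the one with the 6 matches given above.

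HMGA1 was the most abundant of the 9 genes, and HMGA2 had the lowest RPKM as deposited. HMGA1 (ENSG00000137309.15, chromosome 6 from 34204650 to 34214008) had 498 RPKM in library 1, 500 RPKM in library 2 and a mean of 499 ± 1.14 (SD, n = 2 libraries). HMGA2 (ENSG00000149948.9, chromosome 12 from 66218240 to 66360071) stood at 5.98 and 5.79 RPKM, a mean of 5.89 ± 0.132 (SD, n = 2 libraries), and ranked 6278. The ratio of HMGA1 to HMGA2 was 84.7 ± 2.09 (SD, n = 2 libraries), and HMGA1 made up 98.8% of the pair. The size of that ratio depends on length: the exons of HMGA2 sum to 15070 bases over all isoforms, 3.66 times its canonical transcript of 4117 bases. If the authors divided by such summed lengths, the ratio per canonical transcript would be 28.1, and HMGA2 at 21.5 would stand above LIN28B at 9.34.

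None of the antisense transcripts at HMGA2 was above the floor. RPSAP52, which overlaps the 5′ end of HMGA2 on the opposite strand, HMGA2-AS1 and a further antisense RNA (ENSG00000256083.1) were at the floor in both libraries, and of its neighbours MSRB3 stood at 0.525 RPKM and LLPH at 6.11, above HMGA2 itself. SMIM29, the protein-coding gene next to HMGA1, stood at 1.24 RPKM and GRM4 on the other side was at the floor.

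Against the other high-mobility-group genes HMGA1 was the highest. Of 9 HMGB and HMGN genes 8 reached 1 RPKM, beside 59.8% of protein-coding genes, and 7 reached 10, beside 20.2%, with a median of 47.6 RPKM. HMGN2 had 80.9, HMGB1 55.2, HMGN3 52.6, HMGN1 51.5, HMGB2 47.6 and HMGB3 24.4 RPKM, and the testis gene HMGB4 was at the floor. HMGA2 as deposited stood below all of them except HMGN5 at 2.11 RPKM and HMGB4.

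All 3 IGF2BP genes were expressed and no single paralogue dominated. IGF2BP1 (ENSG00000159217.5, chromosome 17 from 47074747 to 47133507) stood at 41.7 and 41.5 RPKM, a mean of 41.6 ± 0.153 (SD, n = 2 libraries), and ranked 765. IGF2BP2 (ENSG00000073792.11, chromosome 3 from 185360918 to 185542830), the paralogue that adult tissues also express, stood at 34.4 RPKM in both libraries, a mean of 34.4 ± 0.0353 (SD, n = 2 libraries), and ranked 959. IGF2BP3 (ENSG00000136231.9, chromosome 7 from 23349828 to 23510110) stood at 12.2 and 12.4 RPKM, a mean of 12.3 ± 0.177 (SD, n = 2 libraries), and ranked 3208.

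The IGF2BP sum of 88.3 RPKM was made up of 47.1% IGF2BP1, 39.0% IGF2BP2 and 13.9% IGF2BP3. The ratio of IGF2BP1 to IGF2BP2 was 1.21 ± 0.00321 and that of IGF2BP1 to IGF2BP3 was 3.39 ± 0.0613 (SD, n = 2 libraries). IGF2BP3 stood at 0.357 ± 0.00551 of IGF2BP2 (SD, n = 2 libraries). The 2 libraries differed for IGF2BP2 by only 0.063 counting standard errors, so its SD lies below the counting error. On the same assumption about lengths as for HMGA2, the ratio of IGF2BP1 to IGF2BP2 would be 1.06. That of IGF2BP1 to IGF2BP3 would be 1.86 and that of IGF2BP3 to IGF2BP2 0.573. The order of the 3 thus held and the gaps narrowed. The antisense RNA IGF2BP2-AS1 was at the floor, as was ENSG00000251461.2 within IGF2BP1, and ENSG00000250838.1, antisense to the start of IGF2BP1, had 0.799 and 0.574 RPKM. MALSU1, which overlaps 1521 bases at the 3′ end of IGF2BP3 on the opposite strand, stood at 5.23 and 5.27 RPKM, and the labels do not say whether strand was used in counting. Of the nearest neighbours, TRA2A at 20.5 RPKM stood above IGF2BP3 and GPNMB was at the floor, SENP2 at 4.69 and TRA2B at 12.1 lay beside IGF2BP2, and GIP and B4GALNT2 beside IGF2BP1 were at the floor.

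Partners and targets of the IGF2BP proteins were broadly present. All 10 listed partners reached 1 RPKM, beside 59.8% of protein-coding genes, and 9 reached 10, beside 20.2%, with a median of 25.1 RPKM. They were led by the poly(A)-binding protein PABPC1 at 399, the cold-shock protein YBX1 at 314, HNRNPU at 57.2, the helicase DHX9 at 37.7, STAU1 at 28.4 and MATR3 at 21.8 RPKM. Of 13 listed target RNAs, of which HMGA2 and LIN28B are themselves among the 9 genes, 12 reached 1 RPKM, beside 59.8% of protein-coding genes. Of the 13, 6 reached 10 RPKM, beside 20.2%, and the median was 8.56 RPKM. ACTB stood at 1698 RPKM, the imprinted noncoding RNA H19 at 243 and IGF2, the growth factor mRNA, at 132. MKI67 stood at 19.6, and CD44 was at the floor in both libraries.

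The IGF2BP proteins are counted among the readers of N6-methyladenosine, the commonest internal mark of mRNA. Of 18 listed writers, erasers and readers 17 had a value. All 17 reached 1 RPKM, beside 59.8% of protein-coding genes, with a median of 11.7 RPKM. The nuclear readers HNRNPA2B1 at 96.5 and HNRNPC at 71.4 were the highest, then YTHDF1 at 31.8, YTHDF2 at 27.5, the eraser ALKBH5 at 22.2 and YTHDC1 at 20.1 RPKM. The catalytic writer METTL3 stood at 7.38 and its partner METTL14 at 4.29.

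ARID3B, a DNA-binding factor and known let-7 target, ranked between TRIM71 and IGF2BP3. ARID3B (ENSG00000179361.13, chromosome 15 from 74833547 to 74890472) stood at 19.5 and 19.2 RPKM, a mean of 19.3 ± 0.212 (SD, n = 2 libraries), and ranked 1941. Its closest relative ARID3A stood higher, at 28.4 and 27.6 RPKM, and ARID3C at 0.874 and 0.867. Of the 13 listed relatives with an ARID domain 10 reached 1 RPKM, beside 59.8% of protein-coding genes. The highest were ARID1A at 35.4, KDM5B at 31.2 and ARID3A, and ARID5B was at the floor. CLK3, whose annotated start lies 0.4 kb from the end of ARID3B, stood at 3.62 RPKM, and UBL7 on the other side at 13.2.

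Other mRNAs commonly cited as let-7 targets were detected throughout. All 28 listed reached 1 RPKM, beside 59.8% of protein-coding genes, and 12 reached 10, beside 20.2%, with a median of 7.80 RPKM. In the longest 3′ UTR 19 of 28 held a seed match, beside 10.6% of protein-coding genes. The list was made of cited let-7 targets, so this share describes its choice and is no test of it. Its median UTR was also longer, at 3378.5 bases beside 1242 over all protein-coding genes. The highest in level were IGDCC3 at 36.2, CDC34 at 33.2, the nuclear receptor NR6A1 at 32.5, CCND1 at 28.8, MYCN at 28.1 and AURKB at 20.5 RPKM. IGDCC3 holds 4 matches and NR6A1 holds 5, which puts both beside TRIM71, LIN28B and IGF2BP1 among the 12 genes with 4 or more. The median of the 9 genes, 31.4 RPKM, was higher than that of this list and of the protein-coding genes as a whole, a description that the choice of the genes enters into.

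**Figure D4:**
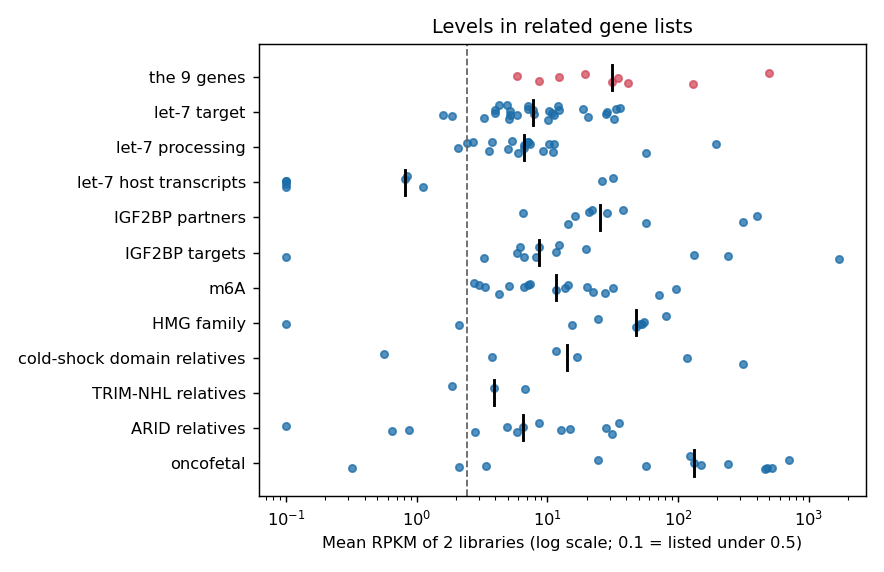
Mean RPKM of the 2 libraries (horizontal axis, log scale, values under 0.5 drawn at 0.1) for the 9 genes (top row) and 11 related lists, each point a gene, with the list median (black bar) and the median of all protein-coding genes (dashed). The 9 genes have a median of 31.4 RPKM, let-7 targets 7.80, let-7 processing genes 6.59 and oncofetal genes 132.

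Among genes named for expression in fetal liver and in tumours, 12 of 13 with a value reached 1 RPKM and 8 reached 100. Of protein-coding genes 59.8% and 1.3% did. AFP stood at 706, the growth factor MDK at 519, DLK1 at 477, the glypican GPC3 at 461, H19 at 243 and CLDN6 at 151 RPKM.

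Pseudogene copies were kept apart from their parents. In all, 18 rows were copies, 11 found by symbol and 7 by sequence, the 7 at 80% identity or more over at least 150 bases of the parent coding sequence. Of these 18, 12 were above the floor, and all 12 have 1 exon and gave whole read numbers. The largest differences between libraries were in ENSG00000225603.3, an IGF2BP2 copy with 84 reads in library 1 and 119 in library 2, and ENSG00000271397.1, a LIN28A copy with 35 and 56. In counting standard deviations, library 1 minus library 2, these were -2.43 and -2.19, and the other 10 copies lay between -1.35 and 1.63.

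HMGA1 had the most copies. HMGA1P2 on chromosome 4 stood at 67.7 and 65.1 RPKM, which is 551 and 531 reads, HMGA1P8 on chromosome 2 at 206 and 228 reads, HMGA1P1 on chromosome X at 325 and 353 and HMGA1P3 on chromosome 12 at 138 and 124. These 4 are 94.7% to 96.9% identical to the HMGA1 coding sequence, and summed to 1220 reads in library 1 and 1236 in library 2, beside an estimated 24075 and 24231 for HMGA1. The more diverged HMGA1P5, HMGA1P6 and HMGA1P7, at 73.5% to 83.2% identity, and HMGA1P4, now annotated as a long noncoding RNA, were at the floor. If every read of the 4 copies belonged to HMGA1 and was scaled by its canonical transcript length, the ratio of HMGA1 to HMGA2 would be 89.0.

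ARID3BP1 was the copy nearest to its parent in level. It has 1 exon, on chromosome 1 from 81967479 to 81969153, and is 98.6% identical to the ARID3B coding sequence over 1673 aligned bases. It stood at 12.5 and 12.4 RPKM, 527 and 524 reads, or 64.4% of the ARID3B level as deposited. ARID3B had an estimated 2072 and 2047 reads by canonical length, or 3031 and 2994 by summed exon length. Per canonical transcript, on the assumption about lengths used for HMGA2, ARID3B would stand at 28.2 and that share would be lower. Whether those reads came from ARID3B mRNA was not tested.

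Copies of the other members were smaller beside their parents. IGF2BP2 had a copy on chromosome 12 (ENSG00000257674.1) at 8.43 and 9.31 RPKM, 25.8% of its own level as deposited. IGF2BP3 had one on chromosome 6 (ENSG00000235008.1) at 5.53 and 5.15 RPKM, 43.5% of its own. Per canonical transcript, on the same assumption, IGF2BP2 would stand at 42.8 and IGF2BP3 at 24.5, and both shares would be lower. LIN28AP1, 93.3% identical to LIN28A over 405 bases, had 71 and 53 reads, LIN28AP2 was at the floor, and a fragment alike to LIN28B had 3 and 4. No copy of HMGA2, IGF2BP1 or TRIM71 was found by these criteria. How the authors' counting shared reads between parents and copies is not given in the sources used here.

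**Figure D5:**
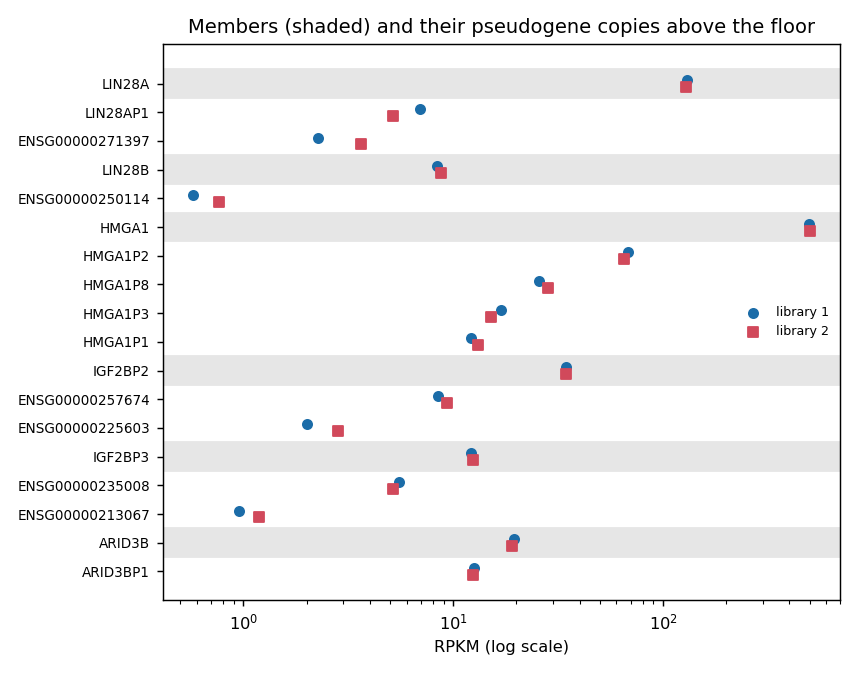
RPKM (horizontal axis, log scale) in library 1 (circles) and library 2 (squares) of the members with copies (shaded rows) and, under each, its pseudogene copies above the floor. ARID3BP1 lies nearest to its parent, at 64.4% of it as deposited, and the copies of HMGA1 lie at 13.3% of HMGA1 or less.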

How the data were processed

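The authors deposited 1 table of RPKM values with 2 library columns, and no per-sample column was left unmapped (0). Cufflinks 2.2.0, STAR 2.3.0e, FastQC 0.10.1 and build hg19 are listed in the submitters' processing notes, and Sailfish in the series' design text. The tool and annotation behind the RPKM are not stated there. From the values, everything under 0.5 RPKM had been set to 0.1 before deposit (39548 and 39542 rows).

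Identifiers were joined without version to GENCODE release 44 on GRCh37 (54428 rows, 95.2%). Depth came from single-exon genes, of which 80.5% under 500 reads gave whole reads within 0.02, and the step was first tested on simulated data. Whole reads were sought in single-exon genes only, and no count model was used. Copies were found with BLAST 2.17.0. No group comparison exists, so no p-value is given. Members and gene lists were chosen with earlier results of these data known. Named genes are the members, their copies, antisense transcripts and neighbours, and up to 6 highest and 4 floor members of each list; others named were chosen after their values were seen. Protein sequences were not used here. Of the listed symbols, MIR98, RBM15B and CD24 had no value. A few listed genes are not reported here.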

Additional observations from a re-analysis of the deposited data

How the results depend on the processing

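The counts of genes at 1, 10 and 100 RPKM stayed at 9, 7 and 2 without replicate 1 and without replicate 2, and the first stayed at 9 at limits of 0.5 and 5 RPKM. No paired analysis was possible because there is 1 group. Without one library or the other, the ratios ran from 14.8 to 15.5 (LIN28A to LIN28B), 83.3 to 86.2 (HMGA1 to HMGA2), 1.207 to 1.211 (IGF2BP1 to IGF2BP2), 3.34 to 3.43 (IGF2BP1 to IGF2BP3) and 0.353 to 0.361 (IGF2BP3 to IGF2BP2). With a pseudocount of 1 RPKM they were 13.6, 72.6, 1.203, 3.21 and 0.375, the same genes being higher in each, and TPM scaling left them as they were by construction. Per canonical transcript length, an alternative chosen after seeing the data, they were 13.8, 28.1, 1.06, 1.86 and 0.573. With the reads of its copies, scaled by its canonical transcript length, HMGA1 stood at 89.0 times HMGA2. Among all 57158 rows HMGA1 ranked 106 and LIN28A 379. Only the ratio of LIN28B to HMGA2 reversed, to 0.433 per canonical transcript length, against 1.45 as deposited and 1.406 to 1.503 without one library or the other. Depth limits little at these levels, since no gene had an estimated read number under 602 in either library by canonical lengths or under 1258 by summed exon lengths. The gene lengths used by the authors limit comparisons between genes more.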

Other observations

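Levels were also set beside the number of let-7 seed matches over all protein-coding genes, as a description. Genes with 0 matches in their longest 3′ UTR had a median of 2.41 RPKM (16779 genes), those with 1 match 3.18 (1744 genes), those with 2 matches 3.45 (214 genes) and those with 3 or more 4.59 (35 genes). Of these groups 59.6%, 68.7%, 70.1% and 77.1% reached 1 RPKM in both libraries. The median UTR length differed as well, at 1098, 2798.5, 4339.5 and 6701 bases, and its part in the levels was not tested. Of the 12 genes with 4 or more matches, the 5 highest were IGF2BP1 at 41.6, IGDCC3 at 36.2, NR6A1 at 32.5, TRIM71 at 31.4 and HIC2 at 18.8 RPKM. The others included SMC1A at 15.6, LIMD2 at 7.11 and LIN28B at 8.56, and SAXO1 was at the floor.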
